A study of Mus musculus with 8 samples.

Results

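Genes of the pentose phosphate pathway, of NADPH use and of antioxidant defence were compared between intestinal tumors and small intestine of mice. The 34 genes came from a list of symbols, and all 34 were found among the 43629 genes of the count table and again in the table of FPKM (fragments scaled to transcript length and library size). They comprised 7 pentose phosphate enzymes, the transcription factor gene Nfe2l2 and its inhibitor Keap1, 3 genes known as targets of that factor, 6 genes of glutathione metabolism, 2 of the thioredoxin system, 6 peroxiredoxins, 4 glutathione peroxidases, catalase and 3 superoxide dismutases. Polyadenylated RNA was sequenced from 4 tumors and 4 small intestines, and both groups carried an Apc mutation on the C57B6/129 background and had no treatment. Apc encodes a brake on Wnt signalling, and mice with a mutant copy are prone to intestinal tumors. All 8 libraries carried the mutation, so the comparison sets tumor against mutant intestine and not against wild-type tissue. The labels give neither the allele nor the age, and do not state how many animals the libraries came from. The p-values below therefore reflect the scatter of these 8 libraries alone, and that scatter may be technical.

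The oxidative branch of the pentose phosphate pathway makes NADPH from glucose 6-phosphate, and the non-oxidative branch exchanges sugar phosphates with glycolysis and supplies ribose for nucleotides. NADPH keeps glutathione and thioredoxin reduced, and these in turn serve the peroxidases that remove hydrogen peroxide and lipid peroxides. The transcription factor NRF2, encoded by Nfe2l2 and held down by KEAP1, is known to switch on many of these genes through a DNA motif called the antioxidant response element. Enterocytes, the absorptive cells of the small intestine, meet oxidants from food, and their brush border carries enzymes that break down glutathione from the gut lumen.

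The 8 libraries held 53856561 to 67371180 counts in tumors and 62347648 to 84433335 in small intestine, and no listed gene had fewer than 83 counts in any library. Values are CPM (counts scaled to library size) after TMM scaling, which adjusts library totals for differences in RNA composition. That adjustment was large here. Scaling by library totals instead raises every log2 fold change by about 0.86, and the median over all 17029 genes tested moves from 0.07 to 0.93. Directions below are therefore given relative to the TMM scale, with the totals scale beside them where it changes the call. Tissue markers differed widely. All 10 enterocyte markers were lower in tumors, with summed levels of 514 to 729.9 CPM in tumors and 34714 to 43896 CPM in small intestine. The 8 markers of Wnt-active tumor epithelium summed to 1991 to 2367 CPM and 93.6 to 166 CPM. Fibroblast markers summed to 1168 to 1871 CPM in tumors and 22.1 to 68.1 CPM in small intestine. The 4 libraries labelled tumor and the 4 labelled small intestine thus separated on every one of these sums.

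Of the 34 genes, 5 were higher in tumors and 17 lower at an adjusted p under 0.05, and 12 did not pass (edgeR's quasi-likelihood test, Benjamini-Hochberg adjustment over all genes). The 22 that passed make 64.7% of the list, against 74.3% of all genes tested. The higher ones make 14.7% against 38.9% of all genes, and the lower ones 50% against 35.4%. The median log2 fold change of the list was -0.28, against 0.07 over all genes. In 19 of the 34 genes (55.9%) the CPM of the 2 groups did not overlap, against 70.5% of all genes. With library totals 18 of the 34 were higher and 10 lower, against 62% and 17.6% of all genes, and the list's median was 0.58 against 0.93. In FPKM 19 were higher and 10 lower, against 64.6% and 18.1% of the 12849 genes tested there, of which 82.7% passed in either direction (79.6% with library totals). Of the 34 genes, 17 passed with TMM and differed at least 2-fold, 4 of them higher and 13 lower. That is 50% of the list against 50.8% of all genes, or 27.9% higher and 22.8% lower.

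Hmox1, Prdx2, Prdx4, Gpx3 and Sod3 were higher in tumors under each of 5 scalings (TMM, DESeq2 size factors, library totals, TMM without the 50 most abundant genes, and FPKM). Tkt, Taldo1, Nqo1, Srxn1, Glrx, Ggt1, Prdx5, Gpx4, Cat and Sod1 were lower under each of the 5. The remaining 19 genes had no call that held in all 5. Of these, Nfe2l2 and Keap1 were lower with TMM and higher with library totals, and Gclc, Gclm, Gss, Gsr and Txn1 were lower with TMM and did not pass with totals. The other 12 did not pass with TMM, with log2 fold changes from -0.28 to 0.08. All of those 12 except Gpx2 were higher with library totals. In whole tissue, fewer cells of a type and less RNA per cell cannot be told apart in any of these values.

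**Figure D1:**
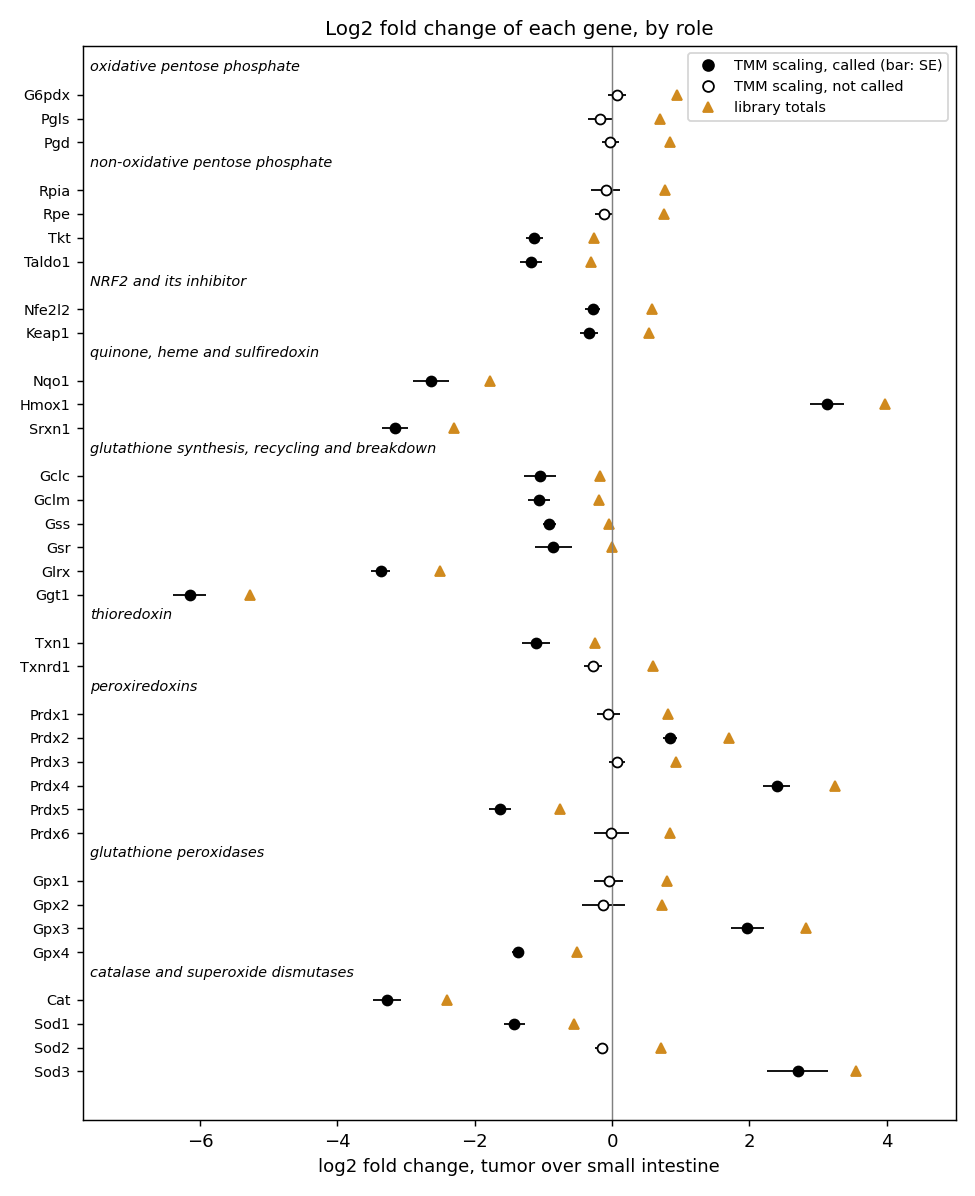
Log2 fold change, tumor over small intestine, of the 34 genes in order of role: circles for TMM scaling (filled where the adjusted p was under 0.05, bars the SE), triangles for library totals. Ggt1 lies farthest to the left at -6.15 and Hmox1 farthest to the right at 3.13, and the triangles sit about 0.86 to the right of the circles.

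In the pentose phosphate pathway the non-oxidative enzymes transketolase and transaldolase were lower in tumors, while no gene of the oxidative branch passed the test on the TMM scale. Tkt, which moves a ketol group between sugar phosphates, measured 355, 369.9, 389 and 378 CPM in tumor replicates 1 to 4 and 727, 741, 826 and 980.4 CPM in small intestine replicates 1 to 4. Taldo1, which moves a dihydroxyacetone group, measured 334, 348, 385 and 303 CPM in tumors and 653, 853, 645 and 953 CPM in small intestine. The groups did not overlap for either gene, and the small intestine libraries spread more widely than the tumors. The log2 fold change was -1.13 ± 0.12 (SE) for Tkt (adjusted p = 2.75e-05) and -1.18 ± 0.16 (SE) for Taldo1 (adjusted p = 1.02e-04). On library totals both were still lower but by less, at -0.26 (adjusted p = 0.0338) and -0.31 (adjusted p = 0.0426).

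G6pdx, the X-linked gene of the first and rate-limiting oxidative enzyme, measured 112, 115, 106 and 136 CPM in tumors and 89.54, 131, 119 and 106 CPM in small intestine. The ranges overlapped, and its log2 fold change of 0.08 ± 0.13 (SE) had an adjusted p of 0.621 with TMM and was 0.95 with library totals (adjusted p = 1.33e-04). Pgls, the lactonase, and Pgd, the second NADPH-making dehydrogenase, had log2 fold changes of -0.17 and -0.03 with TMM and 0.69 and 0.84 with totals. Rpia and Rpe, the isomerase and the epimerase at the head of the non-oxidative branch, stood at -0.10 and -0.12 with TMM and 0.77 and 0.75 with totals. These 5 genes passed the test, as higher, with totals and in FPKM, but not with TMM.

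A ratio taken within each library does not depend on the scaling between tissues. The mean log2 count of G6pdx, Pgls and Pgd minus that of Rpia, Rpe, Tkt and Taldo1 was 0.25, 0.23, 0.17 and 0.36 in tumor replicates 1 to 4 and -0.33, -0.36, -0.16 and -0.51 in small intestine replicates 1 to 4. All 4 tumors lay above all 4 small intestines. The difference was 0.59 on the log2 scale, or 1.51-fold, with p = 0.0286 in a 2-sided exact permutation test, the smallest p that 4 against 4 libraries allow. Adjusted over the 6 ratios tested it was 0.0857 and did not pass. The non-oxidative genes in this ratio differed, with TMM log2 fold changes of -1.13 for Tkt and -1.18 for Taldo1. Those of Rpia and Rpe were -0.10 and -0.12. In shares of the summed FPKM of the 7 enzymes, Taldo1 made up 38.6 ± 2.89% (SD, n = 4) in tumors and 51.9 ± 4.91% in small intestine, and Pgd 24.3 ± 0.626% and 14.6 ± 2.0004%. G6pdx made up 5.87 ± 0.792% and 3.24 ± 0.451%. The summed FPKM of the pathway overlapped between the groups, at 850.01 ± 36.3 in tumors and 793 ± 72.7 in small intestine.

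**Figure D2:**
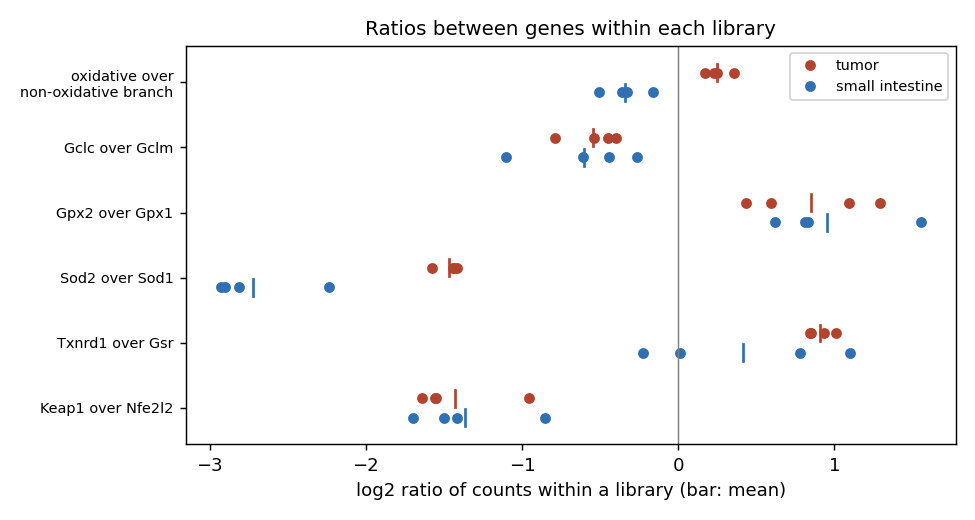
The 6 log2 ratios within each library, 1 point per library and a bar at the group mean: tumors and small intestine side by side. The oxidative over non-oxidative ratio and the Sod2 over Sod1 ratio do not overlap between the groups, and the other 4 do.

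Other routes to NADPH were read from 19 listed genes, not all of which encode enzymes that make NADPH. They cover malic enzymes, isocitrate dehydrogenases, folate-cycle dehydrogenases, NAD kinases and related steps. Of the 19 genes, 9 were higher, 8 lower and 2 did not pass, with a median log2 fold change of 0.10 against 0.07 over all genes. The 17 that passed make 89.5% of the list, where 38.9% of all genes were higher and 35.4% lower (74.3% together). With totals 11 were higher and 4 lower, where 62% of all genes were higher and 17.6% lower. Me2, a mitochondrial malic enzyme, measured 49.4, 47.05, 44.6 and 60.6 CPM in tumors and 739.8, 1059, 1034 and 842 CPM in small intestine, which is a log2 fold change of -4.19 ± 0.17 (SE, adjusted p = 9.56e-08). Me3, the NADP-linked mitochondrial malic enzyme, was 2.15 ± 0.280 CPM (SD, n = 4) in tumors and 18.7 ± 8.31 CPM in small intestine, and its log2 fold change was -3.12 ± 0.34 (SE). Shpk, the kinase that feeds sedoheptulose into the non-oxidative branch, was 5.42 ± 0.494 CPM and 52.502 ± 3.97 CPM, with a log2 fold change of -3.28 ± 0.11 (SE). In each of these 3 genes every tumor lay below every small intestine. Me1, the cytosolic NADP-linked malic enzyme and named after its values were seen, went the other way, from 6.82, 11.3, 12.98 and 16.6 CPM in small intestine to 37.7, 33.7, 68.502 and 21.9 CPM in tumors, which is a log2 fold change of 1.76 ± 0.37 (SE).

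Nfe2l2 and Keap1 differed between the tissues by small amounts whose sign depended on the scaling. Nfe2l2, the gene of NRF2, measured 145, 146, 153 and 129 CPM in tumors and 191, 142, 182 and 182 CPM in small intestine. Keap1, the adaptor that hands NRF2 to a ubiquitin ligase, measured 49.52, 49.4, 48.9 and 66.54 CPM in tumors and 58.9, 78.9, 68.3 and 64.4 CPM in small intestine. Small intestine replicate 2 lay among the tumors for Nfe2l2, and tumor replicate 4 lay among the small intestines for Keap1. With TMM both just passed as lower, at -0.28 ± 0.11 (SE, adjusted p = 0.0422) and -0.34 ± 0.13 (SE, adjusted p = 0.043), and with library totals both passed as higher, at 0.58 and 0.53. With 1 library left out the TMM call of Nfe2l2 remained only without small intestine replicate 2, and that of Keap1 only without tumor replicate 4 or small intestine replicate 1. The log2 ratio of Keap1 to Nfe2l2 within a library differed by -0.06 between the groups (2-sided exact permutation p = 0.657, adjusted over the 6 ratios 0.771).

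Of 12 listed partners and regulators of NRF2, 4 were higher, 6 lower and 2 did not pass (8 higher and 2 lower with totals). The share that passed was 83.3%, against 74.3% of all genes (38.9% higher and 35.4% lower). With totals, 62% of all genes were higher and 17.6% lower. The median log2 fold change of the list was -0.27 against 0.07. Nfe2l3, a relative of NRF2 in the same family, had 4490, 4159, 3723 and 3270 counts in tumor replicates 1 to 4 and 15, 11, 6 and 13 counts in small intestine replicates 1 to 4. Its log2 fold change of 7.85 ± 0.23 (SE, adjusted p = 2.26e-08) was larger in size than that of any of the 34 genes. Bach1, a repressor that competes with NRF2 at its motif, measured 54.6, 54.4, 55.52 and 46.7 CPM in tumors and 228, 332, 213 and 402 CPM in small intestine, which is a log2 fold change of -2.48 ± 0.21 (SE, adjusted p = 4.84e-06). Bach2, its relative best known in lymphocytes, was 9.14 ± 0.861 CPM (SD, n = 4) in tumors and 23.01 ± 6.15 CPM in small intestine, with a log2 fold change of -1.33 ± 0.19 (SE) on the TMM scale. With totals it was -0.46 (edgeR, adjusted p = 0.0496), and in FPKM it was -0.22 and did not pass (limma, adjusted p = 0.396). The 6 T cell markers were all lower in tumors, with summed levels of 12.9 to 24.8 CPM against 48.99 to 196 CPM and none at 0, and their part in the Bach2 value was not tested.

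Among the genes grouped here as NRF2 targets, Nqo1 and Srxn1 were lower in tumors and Hmox1 higher. Other listed genes that NRF2 is known to switch on are described with their own pathways. Nqo1, a quinone reductase that uses NADPH or NADH (chr8:107388225-107403206, minus strand, GRCm38), measured 5.57, 4.58, 7.87 and 3.59 CPM in tumors and 28.3, 27.48, 44.7 and 34.02 CPM in small intestine. Srxn1, the sulfiredoxin that repairs over-oxidised peroxiredoxins (chr2:152105516-152111376, plus strand), measured 72.8, 79.3, 88.51 and 54.1 CPM in tumors and 551, 696, 603 and 793 CPM in small intestine. For both genes every tumor lay well below every small intestine, with tumor replicate 4 the lowest of the 8. Nqo1 was 6.23-fold lower (log2 fold change -2.64 ± 0.26 SE, adjusted p = 1.51e-05) and Srxn1 8.97-fold lower (log2 fold change -3.17 ± 0.19 SE, adjusted p = 6.09e-07).

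Hmox1, the inducible heme oxygenase that breaks down heme to biliverdin, iron and carbon monoxide (chr8:75093621-75100589, plus strand), went the other way. It measured 23.7, 19.49, 20.2 and 21.3 CPM in tumors and 2.99, 3.11, 2.16 and 1.43 CPM in small intestine, and no library of one group came near the other. The difference was 8.72-fold (log2 fold change 3.13 ± 0.25 SE, adjusted p = 3.27e-06). Hmox1 is known to be abundant in macrophages. The 7 macrophage markers were all higher in tumors, with summed levels of 150.00 to 233 CPM against 66.1 to 119 CPM, and the 5 red blood cell markers were all higher too, at 20.54 to 38.6 CPM against 2.29 to 14.05 CPM. No marker of either list was at 0 in any library, and their part in the Hmox1 value was not tested.

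Promoter sequence was read for 29 of the 34 genes from RefSeq windows of 300 bases on GRCm38.p6, each running from 250 bases before to 50 after a transcription start site. Windows of Hmox1, Gclc, Gsr, Prdx6 and Sod3 were not used here. The antioxidant response element core was searched as TGACNNNGC on both strands. It occurred in 11 of the 39 windows of these genes (28.2%), against 12.4% of all 32851 windows and 14.2% of the windows of genes tested. By gene, 9 of the 29 had a match (31.0%), against 14.0% of all genes with a window and 16.7% of those tested. The 9 genes were G6pdx, Pgd, Nfe2l2, Srxn1, Gclm, Ggt1, Txnrd1, Prdx1 and Sod1. Of these, 5 were lower in tumors on the TMM scale and 4 did not pass, where 50% of the 34 genes and 35.4% of all genes were lower. The matches of Pgd and Srxn1 and 1 match of Ggt1 lay after a start site, at positions 4, 29 and 42. Another window of Pgd held no match. A second motif, TGACTCAGC or TGAGTCAGC on either strand, was added after the windows were seen. It occurred in 2 of the 39 windows, those of Srxn1 and Prdx1, against 0.822% of all windows. Only TGACTCAGC is a case of the core, and the Srxn1 match was TGAGTCAGC, which is not. Both strings hold TGACTCA or TGAGTCA, which was scored separately as the motif of the transcription factor AP-1. A match is a string of letters in a window and not a measured binding site.

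The 3 sequences below are the bases that precede the annotated start of Srxn1, which fell, of Gclm, which was lower on the TMM scale, and of Prdx1, which did not pass. They are shown because a match to the core or the second motif stood both before genes that passed the test and before a gene that did not. All are on the plus strand of GRCm38.p6, at chr2:152105274-152105515, chr3:122245307-122245556 and chr4:116685349-116685543. Capitals mark the second motif in Srxn1, 45 bases before the RefSeq start, and the core motif in Gclm, 134 bases before it. In Prdx1 they mark a match to both, 133 bases before the start. The core match of Srxn1 lies after the start and is not printed.
Srxn1: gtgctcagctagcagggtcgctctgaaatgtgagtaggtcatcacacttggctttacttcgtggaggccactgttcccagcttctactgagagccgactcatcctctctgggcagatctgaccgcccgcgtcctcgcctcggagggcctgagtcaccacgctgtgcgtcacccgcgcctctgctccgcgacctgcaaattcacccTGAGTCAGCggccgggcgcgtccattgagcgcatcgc
Gclm: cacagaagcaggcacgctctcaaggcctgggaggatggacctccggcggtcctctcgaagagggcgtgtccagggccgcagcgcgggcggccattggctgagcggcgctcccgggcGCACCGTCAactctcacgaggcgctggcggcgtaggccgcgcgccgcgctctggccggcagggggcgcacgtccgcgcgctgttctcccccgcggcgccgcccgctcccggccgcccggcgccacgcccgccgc
Prdx1: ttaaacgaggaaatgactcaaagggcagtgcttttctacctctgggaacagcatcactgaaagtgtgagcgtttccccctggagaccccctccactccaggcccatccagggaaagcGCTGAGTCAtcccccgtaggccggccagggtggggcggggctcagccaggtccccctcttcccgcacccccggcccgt

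The other NRF2 targets, a list of 22 glutathione transferases, carbonyl reductases, ferritins, transporters and related genes, held 7 that were higher, 11 lower and 4 that did not pass, with a median log2 fold change of -0.78 against 0.07 over all genes. The share that passed was 81.8%, against 74.3% of all genes (38.9% higher and 35.4% lower). With totals 11 were higher and 10 lower, against 62% and 17.6% of all genes. Gstm3, a glutathione transferase, was 3.25 ± 0.655 CPM (SD, n = 4) in tumors and 48.6 ± 10.3 CPM in small intestine, with a log2 fold change of -3.90 ± 0.21 (SE). Osgin1, a growth inhibitor induced by oxidative stress, was 6.31 ± 0.927 CPM and 94.1 ± 26.53 CPM, with a log2 fold change of -3.90 ± 0.23 (SE). Aox1, an aldehyde oxidase, had 112, 129, 150 and 139 counts in tumors and 12, 3, 1 and 0 counts in small intestine. Its fitted log2 fold change of 4.46 rests on very few small intestine counts, most of them in replicate 1.

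All 6 genes of glutathione synthesis, recycling and breakdown were lower in tumors with TMM, against 35.4% of all genes. Only Glrx and Ggt1 were also lower with library totals, against 17.6% of all genes. Ggt1, the gamma-glutamyltransferase that cleaves extracellular glutathione at the cell surface (chr10:75561604-75586200, plus strand), measured 19.3, 18.4, 15.6 and 11.9 CPM in tumors and 1157, 1121, 894 and 1454 CPM in small intestine. That is 70.9-fold lower, with a log2 fold change of -6.15 ± 0.24 (SE, adjusted p = 7.22e-08), the largest difference among the 34 genes. Glrx, a glutaredoxin that removes glutathione from protein thiols (chr13:75839868-75850154, plus strand), measured 47.6, 51.04, 49.54 and 47.9 CPM in tumors and 429, 639.9, 473 and 486 CPM in small intestine. The 4 tumors lay within a few CPM of each other, 10.3-fold below the small intestines (log2 fold change -3.37 ± 0.14 SE, adjusted p = 9.93e-08). Enterocyte markers differed in the same direction (all 10 lower, none at 0, summed levels as above), and their part in these values, and in those of the other genes lower in tumors, was not tested.

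Glutathione is made in 2 steps, by glutamate-cysteine ligase, whose catalytic and modifier subunits are Gclc and Gclm, and by the synthetase Gss. Gclc measured 45.9, 44.6, 45.6 and 39.4 CPM in tumors and 107, 58.49, 67.8 and 131 CPM in small intestine. Gclm measured 60.4, 60.98, 66.3 and 68.1 CPM in tumors and 128, 125, 103 and 178 CPM in small intestine. Every tumor lay below every small intestine for both, and small intestine replicates 2 and 3 were the lower ones for Gclc. The log2 fold changes were -1.05 ± 0.24 (SE, adjusted p = 0.00272) and -1.07 ± 0.16 (SE, adjusted p = 1.86e-04) with TMM, and -0.18 (adjusted p = 0.474) and -0.19 (adjusted p = 0.211) with totals. Their ratio within a library differed by 0.06 on the log2 scale (2-sided exact permutation p = 0.771). Gss had a log2 fold change of -0.91 with TMM and -0.05 with totals.

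Gsr, the reductase that returns oxidised glutathione to its reduced form at the cost of NADPH, varied among the small intestines. It measured 176, 162, 201 and 160.1 CPM in tumors and 194, 372, 476 and 222 CPM in small intestine, so that replicates 2 and 3 stood apart from replicates 1 and 4, and replicate 1 lay among the tumors. Its log2 fold change was -0.85 ± 0.27 (SE, adjusted p = 0.0159) with TMM and 0.0059 with totals. Without tumor replicate 2 the TMM value was -0.79 and no longer passed (adjusted p = 0.0513).

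Genes that supply or turn over glutathione outside the list included brush border peptidases that were lower like Ggt1. Of 19 listed, 6 were higher, 8 lower and 5 did not pass (10 higher and 6 lower with totals). The 73.7% that passed is close to the 74.3% of all genes (38.9% higher and 35.4% lower). With totals, 62% of all genes were higher and 17.6% lower. The median log2 fold change of the list was -0.23 against 0.07. Anpep and Dpep1, peptidases that complete the breakdown of glutathione to free amino acids, had log2 fold changes of -7.04 ± 0.38 (SE) and -6.85 ± 0.24 (SE). Anpep fell from 21674 ± 3512 CPM (SD, n = 4) in small intestine to 165 ± 55.9 CPM in tumors, and Dpep1 from 1645 ± 311 CPM to 14.3 ± 2.83 CPM. The enzymes that make cysteine from homocysteine moved apart. Cth, which releases cysteine, was 7.74 ± 0.828 CPM in tumors and 97.1 ± 18.6 CPM in small intestine, which is a log2 fold change of -3.65 ± 0.16 (SE). Cbs, the step before it, had 678, 434, 393 and 925 counts in tumors and 75, 20, 22 and 20 counts in small intestine, which is a log2 fold change of 3.54 ± 0.49 (SE).

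Txn1, the thioredoxin that passes electrons to peroxiredoxins, measured 406, 387, 541 and 295 CPM in tumors and 674, 1024, 1001 and 805 CPM in small intestine. The groups did not overlap, and its log2 fold change was -1.11 ± 0.21 (SE) with TMM (adjusted p = 9.55e-04) and -0.24 with totals (adjusted p = 0.275). Txnrd1, the NADPH-dependent selenoenzyme that recycles thioredoxin, did not pass with TMM, at -0.28 ± 0.14 (SE, adjusted p = 0.0909), and was higher with totals, at 0.59. The log2 ratio of Txnrd1 to Gsr, the 2 NADPH-dependent reductases, differed by 0.49 with overlapping groups (2-sided exact permutation p = 0.286, adjusted over the 6 ratios 0.571). Of 13 other genes of the thioredoxin system and of methionine sulfoxide repair, 4 were higher, 6 lower and 3 did not pass (8 higher and 4 lower with totals). The 76.9% that passed is close to the 74.3% of all genes (38.9% higher and 35.4% lower). With totals, 62% of all genes were higher and 17.6% lower. The median log2 fold change of the list was -0.20 against 0.07. Msrb3, a methionine sulfoxide reductase, was 58.2 ± 4.56 CPM (SD, n = 4) in tumors and 1.03 ± 0.431 CPM in small intestine, and Nxn, a thioredoxin relative, 51.46 ± 5.498 CPM and 2.30 ± 0.754 CPM. Sesn1, a stress-induced sestrin, was 7.70 ± 0.984 CPM and 176 ± 22.9 CPM. Their log2 fold changes were 5.80 ± 0.28 (SE), 4.48 ± 0.25 (SE) and -4.51 ± 0.15 (SE). Fibroblast markers were higher in tumors too, and their part in the values of Msrb3 and Nxn was not tested.

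The 6 peroxiredoxins, thiol peroxidases of different compartments, did not move together. Prdx4, the member of the endoplasmic reticulum (chrX:155323918-155340754, minus strand), measured 59.9, 60.9, 56.2 and 48.9 CPM in tumors and 9.17, 11.97, 14.4 and 7.47 CPM in small intestine, 5.26-fold higher (log2 fold change 2.39 ± 0.20 SE, adjusted p = 4.52e-06). Prdx2, an abundant cytosolic member, measured 289, 270.1, 298 and 264 CPM and 137, 165, 167 and 156 CPM, which is a log2 fold change of 0.84 ± 0.10 (SE, adjusted p = 3.81e-05). Prdx5, found in mitochondria, peroxisomes and cytosol, measured 141, 139, 136 and 107 CPM in tumors and 325, 505, 362 and 434 CPM in small intestine, which is a log2 fold change of -1.63 ± 0.16 (SE, adjusted p = 1.33e-05). In all 3 the groups were fully apart, upward for Prdx4 and Prdx2 and downward for Prdx5. Secretory cells such as plasma cells are known to be rich in Prdx4. Of 6 B and plasma cell markers, 3 were lower in tumors and none higher, with summed levels of 629.5 to 2731 CPM in tumors and 357 to 2367 CPM in small intestine and none at 0, and their part in the Prdx4 value was not tested.

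Cytosolic Prdx1, mitochondrial Prdx3 and Prdx6, which also acts on phospholipids, had TMM log2 fold changes of -0.05, 0.07 and -0.0091 and did not pass. With totals all 3 were higher, at 0.81, 0.93 and 0.85. Shares of the family's summed FPKM do not depend on that scaling. Prdx5 made up 8.48 ± 0.485% (SD, n = 4) of the family in tumors and 28.4 ± 4.71% in small intestine. Prdx2 made up 17.9 ± 1.44% and 9.499 ± 1.09%, Prdx4 4.86 ± 0.345% and 0.893 ± 0.227%, and Prdx1 49.9 ± 1.55% and 42.7 ± 2.26%. These 4 shares did not overlap between the groups, while those of Prdx3 and Prdx6 did. The Prdx1 share rests on FPKM, where its log2 fold change was 1.10, against 0.81 in counts with totals. Prdx1 was the leading peroxiredoxin in every library.

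**Figure D3:**
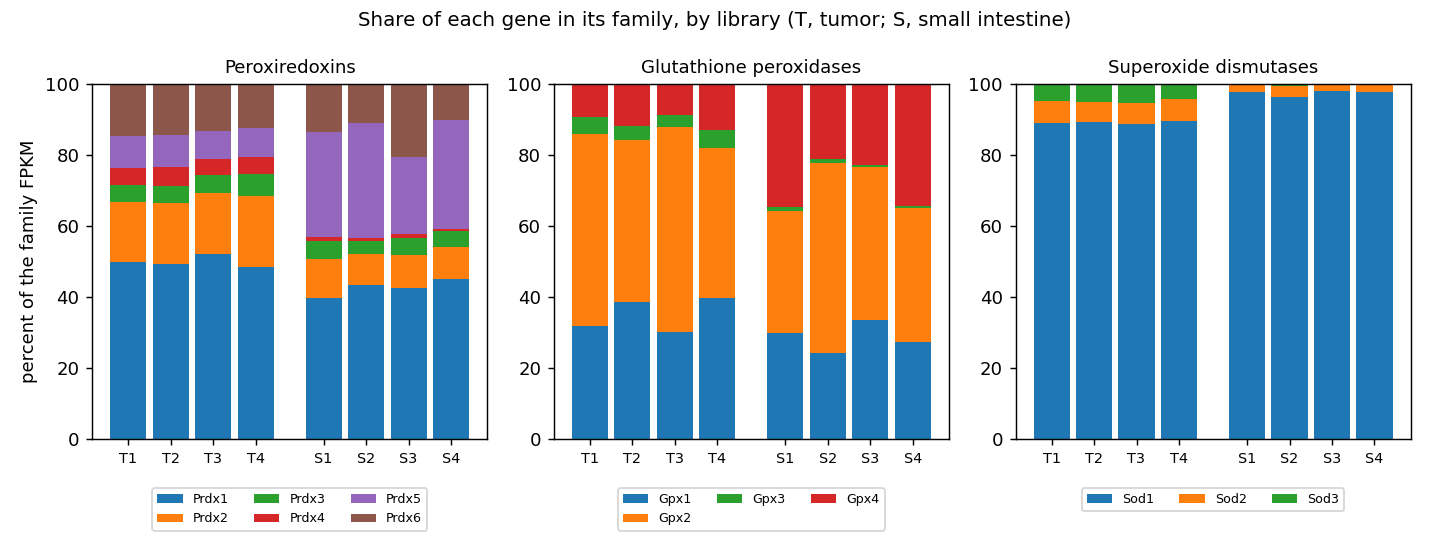
Share of each gene in the summed FPKM of its family in every library, as stacked bars from 0 to 100%, for the peroxiredoxins, glutathione peroxidases and superoxide dismutases. Prdx5 and Gpx4 take visibly smaller shares in the 4 tumors, at 8.48% and 10.8% on average against 28.4% and 28.3%.

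Among the glutathione peroxidases Gpx3 was higher in tumors, Gpx4 lower, and the gut enzymes Gpx1 and Gpx2 did not pass on the TMM scale. Gpx3, the secreted form (chr11:54902453-54910377, plus strand), measured 76.3, 55.05, 64.6 and 66.9 CPM in tumors and 17.8, 24.7, 13.7 and 10.8 CPM in small intestine, which is a log2 fold change of 1.97 ± 0.24 (SE, adjusted p = 5.49e-05). Gpx4, which reduces lipid hydroperoxides in membranes and restrains ferroptosis (chr10:80047166-80056439, plus strand), measured 86.3, 91.2, 92.3 and 87.8 CPM in tumors and 240.1, 209, 232 and 244 CPM in small intestine. Both groups were tight, and Gpx4 was 2.59-fold lower with a log2 fold change of -1.37 ± 0.08 (SE, adjusted p = 7.89e-07). With totals it was still lower, at -0.51 (adjusted p = 4.05e-04).

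Gpx2, the epithelial form of the gut and a known Wnt and NRF2 target, measured 553, 386, 676 and 341 CPM in tumors and 341, 719, 719 and 361 CPM in small intestine. The groups covered nearly the same range, with tumor replicates 1 and 3 and small intestine replicates 2 and 3 high, and the log2 fold change was -0.13 ± 0.31 (SE, adjusted p = 0.72) with TMM. With totals it was 0.73 and did not pass (edgeR, adjusted p = 0.0579), and in FPKM it was 0.83 and passed as higher (limma, adjusted p = 0.0445), though not without the filter on low values (adjusted p = 0.0814). Gpx1, the ubiquitous cytosolic form, measured 259, 256, 276 and 252 CPM in tumors and 222, 245, 409.7 and 204 CPM in small intestine. The tumors were close together inside the range of the small intestines, where replicate 3 stood highest, and the log2 fold change was -0.05 ± 0.21 (SE, adjusted p = 0.831) with TMM and 0.80 with totals (adjusted p = 0.00799). The ratio of Gpx2 to Gpx1 differed by -0.10 on the log2 scale (2-sided exact permutation p = 0.771). In family shares of FPKM, Gpx4 made up 10.8 ± 1.89% (SD, n = 4) in tumors and 28.3 ± 7.29% in small intestine, and Gpx2 49.9 ± 7.06% and 42.2 ± 8.41%.

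These 4 peroxidases and Txnrd1 are selenoproteins, which need selenium and a dedicated machinery to insert selenocysteine. Of 9 genes of that machinery and of selenium supply, 3 were higher, 5 lower and 1 did not pass (4 higher and 2 lower with totals). The share that passed was 88.9%, against 74.3% of all genes (38.9% higher and 35.4% lower). With totals, 62% of all genes were higher and 17.6% lower. The median log2 fold change of the list was -0.59 against 0.07. Selenop, the secreted selenium carrier, measured 150.1, 210.1, 137 and 139.8 CPM in tumors and 9704, 8845, 5242 and 12375 CPM in small intestine, which is a log2 fold change of -5.83 ± 0.34 (SE, adjusted p = 5.67e-07). Lrp8, a receptor that takes up this carrier, measured 25.3, 29.4, 22.3 and 35.8 CPM in tumors and 3.30, 2.92, 1.55 and 1.26 CPM in small intestine, which is a log2 fold change of 3.64 ± 0.33 (SE, adjusted p = 8.32e-06). The carrier was thus lower and its receptor higher in each tumor than in any small intestine. Sepsecs, which makes selenocysteine on its tRNA, was 18.2 ± 1.53 CPM (SD, n = 4) and 63.7 ± 10.004 CPM, with a log2 fold change of -1.80 ± 0.13 (SE).

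Catalase and cytosolic superoxide dismutase were lower in tumors and the extracellular dismutase higher. Cat, the peroxisomal enzyme that splits hydrogen peroxide without a thiol cofactor (chr2:103453849-103485160, minus strand), measured 36.6, 34.7, 39.1 and 31.6 CPM in tumors and 375, 247, 287 and 464 CPM in small intestine. Every tumor lay far below every small intestine, 9.67-fold on average (log2 fold change -3.27 ± 0.20 SE, adjusted p = 8.04e-07). Of the summed FPKM of catalase, peroxiredoxins and glutathione peroxidases, Cat made up 0.585 ± 0.0268% (SD, n = 4) in tumors and 5.09 ± 2.13% in small intestine. Sod1, the copper and zinc enzyme of the cytosol, measured 176, 176, 173 and 183 CPM in tumors and 455, 344, 547 and 556 CPM in small intestine. Its tumors were nearly level and all below the small intestines, with a log2 fold change of -1.43 ± 0.15 (SE, adjusted p = 2.45e-05).

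Sod2, the manganese enzyme of mitochondria, did not pass with TMM, at -0.15 ± 0.10 (SE, adjusted p = 0.193), and was higher with totals, at 0.72 (adjusted p = 3.88e-05). The log2 ratio of Sod2 to Sod1 was -1.43, -1.58, -1.41 and -1.44 in tumor replicates 1 to 4 and -2.93, -2.24, -2.90 and -2.81 in small intestine replicates 1 to 4. All tumors were above all small intestines, by 1.25 on average (2-sided exact permutation p = 0.0286, adjusted over the 6 ratios 0.0857). In shares of the 3 dismutases' summed FPKM, Sod1 made up 88.98 ± 0.371% (SD, n = 4) in tumors and 97.3 ± 0.753% in small intestine, Sod2 6.02 ± 0.341% and 2.38 ± 0.501%, and Sod3 5.001 ± 0.448% and 0.317 ± 0.286%.

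Sod3, the dismutase secreted into the extracellular matrix (chr5:52363791-52371418, plus strand), measured 60.9, 67.04, 67.8 and 57.3 CPM in tumors and 11.3, 18.6, 4.98 and 3.98 CPM in small intestine. The tumors were close to each other, and the small intestines fell into higher values in replicates 1 and 2 and lower ones in replicates 3 and 4. The difference was 6.51-fold (log2 fold change 2.70 ± 0.44 SE, adjusted p = 3.93e-04). Sod3 and Gpx3 are both secreted. Of the 7 fibroblast markers, 6 were higher in tumors and none was at 0 in any library. Their summed level was 1871, 1395, 1572 and 1168 CPM in tumor replicates 1 to 4. In small intestine replicates 1 to 4 it was 68.1, 62.7, 26.1 and 22.1 CPM. The 6 endothelial markers were all higher in tumors, with summed levels of 183 to 244 CPM against 10.9 to 28.3 CPM and none at 0. The part of these cells in the values of Sod3 and Gpx3 was not tested.

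**Figure D4:**
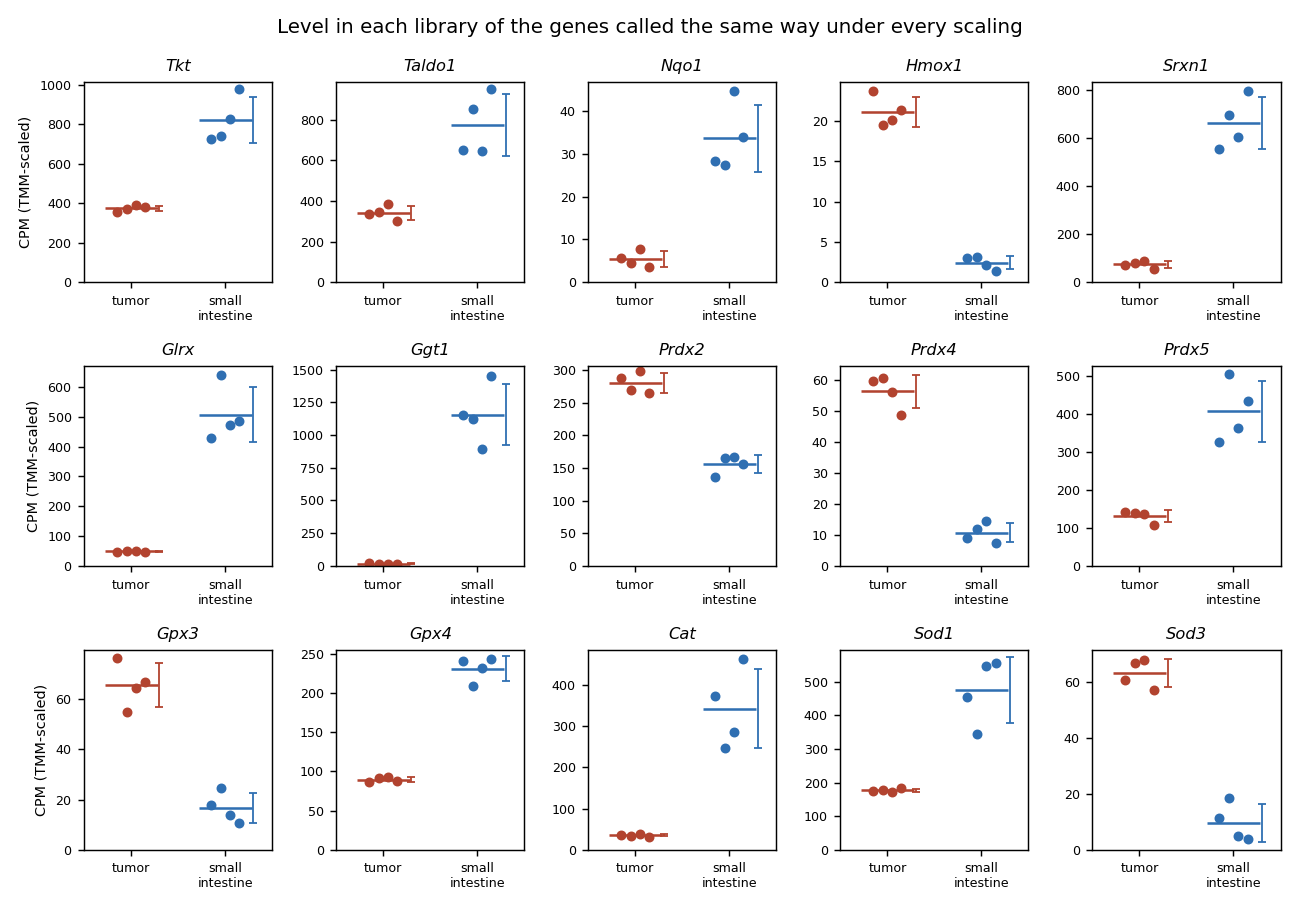
CPM after TMM scaling in each library, on a linear axis from 0, for the 15 genes with the same call under all 5 scalings, with 1 point per library, a line at the group mean and a bar for the SD. Hmox1, Prdx2, Prdx4, Gpx3 and Sod3 have all 4 tumors above all 4 small intestines, and the other 10 genes have them below.

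Levels of different genes were compared per length, in FPKM. In tumors the most abundant of the 34 was Prdx1 at 789 ± 97.6 FPKM (SD, n = 4), then Gpx2 at 587 ± 176 and Txn1 at 552 ± 125, and these last 2 did not differ beyond their spread. In small intestine Txn1 led at 648 ± 132 FPKM, followed by Sod1 at 584 ± 106 and Ggt1 at 543 ± 77.01, again within their spreads. Ggt1 ranked 3 in small intestine and 33 in tumors, at 13.7 ± 2.47 FPKM, where only Nqo1 was lower at 4.15 ± 1.33. Hmox1 was the lowest of the 34 in small intestine, at 0.935 ± 0.317 FPKM, and Sod3 next at 1.68 ± 1.21.

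**Figure D5:**
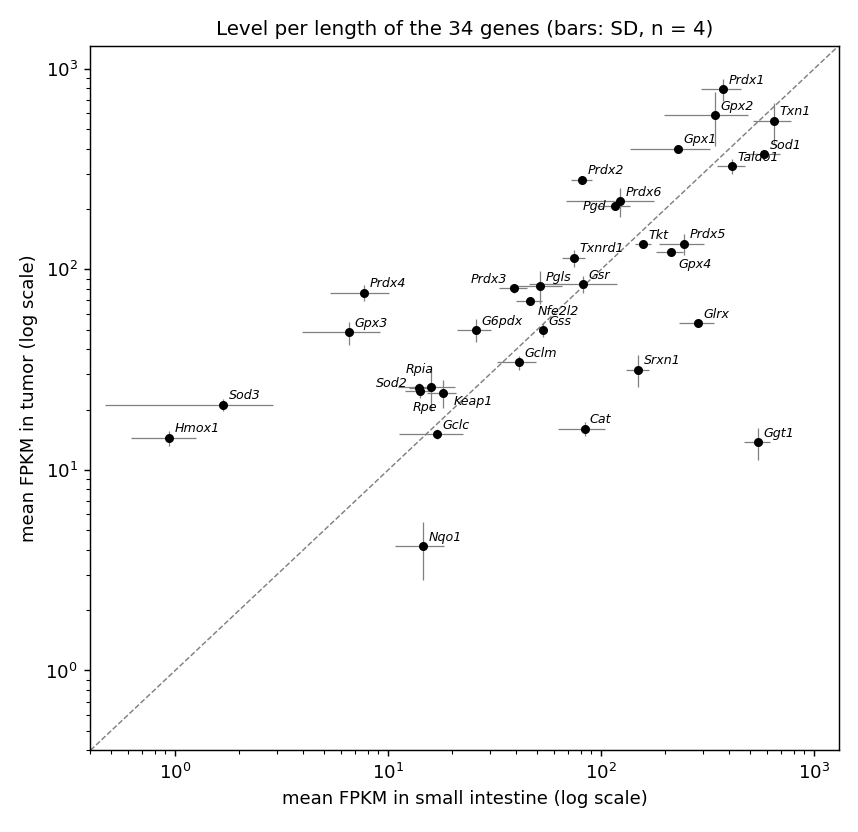
Mean FPKM of each of the 34 genes in tumors against small intestine, both axes logarithmic, with SD bars (n = 4 each) and the line of equality. Ggt1, Cat, Srxn1 and Glrx lie far below the line and Hmox1, Sod3, Gpx3 and Prdx4 far above it.

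The 34 genes varied less among tumors than among small intestines. The coefficient of variation of CPM had a median of 9.75% in tumors and 19.6% in small intestine, and it was smaller in tumors for 28 of the 34. Single libraries were often at an end of their group. Tumor replicate 4 had the lowest CPM of the 4 tumors for 20 of the 34 genes, and tumor replicate 3 the highest for 19. Small intestine replicate 1 was the lowest of its group for 18. Neither the coefficient of variation nor these ranks were computed over all genes, so they cannot be read as a trait of this list. Some genes share exons with a neighbour, and the strand setting of the counting is not given in the sources used here, so reads there could belong to either gene. Of the 34 genes, 6 share exonic bases with another protein-coding gene, at most 20.6% of the exonic bases (Pgls, with Fam129c). Prdx5 shares 19.1% with Trmt112, Rpe 17.9% with Kansl1l, G6pdx 13.6% with Ikbkg and Gss 6.68% with Acss2. Prdx2 shares 5.67% with Junb and 5.80% with Rnaseh2a. All of these neighbours lie on the opposite strand, unlike Fam129c. Fam129c had a mean of 94.6 counts against 4391 for Pgls. Ikbkg had 2993 against 7929 for G6pdx, and Junb 11455 against 15868.5 for Prdx2. The effect of shared bases on the calls was not tested.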

How the data were processed

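Polyadenylated RNA of 4 tumors and 4 small intestines was sequenced. Per the submitters' processing notes the tools were FastQC, STAR, Cufflinks 2.2.1 and HTSeq 0.6.0, with build GRCm38, and neither their parameters nor the strand setting is given in these sources. The authors deposited raw counts per gene and FPKM values per gene. Groups came from the tissue label.

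From the deposited counts, edgeR 4.0.16 (R 4.3.3) fitted tissue over all genes with TMM, filterByExpr and the quasi-likelihood test, with Benjamini-Hochberg adjustment and a threshold of 0.05. TMM factors averaged 1.35 ± 0.0213 (SD, n = 4) in tumors and 0.742 ± 0.0442 in small intestine. Alternatives were DESeq2 1.42.0, library totals, other filters, a replicate block, each library left out, and limma 3.58.1 on log2(FPKM + 1) where the mean FPKM was 1 or more. Ratios within a library used log2(count + 0.5) and exact permutation tests. The tests were tried on simulated counts first. Promoter windows, gene positions and overlaps came from RefSeq (GRCm38.p6) and GENCODE M21.

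The 34 genes, the 6 pathway lists and the 13 marker lists were chosen with earlier results of these data known. Values in every library are given for genes that passed and changed at least 2-fold, for Nfe2l2, Keap1, G6pdx, Gclc, Gclm, Gpx1 and Gpx2 in any case, and for a few others after their values were seen (Gsr, Prdx2). From each pathway list up to 3 genes with the largest change among those that passed were named, plus the largest in the direction with fewer genes. Of the marker lists not mentioned elsewhere, 5 of 6 pan-epithelial, 5 of 7 goblet and 5 of 7 Paneth markers were lower in tumors, and 4 of 6 smooth muscle and 5 of 5 neutrophil markers were higher.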

Additional observations from a re-analysis of the deposited data

Results flagged for a closer look

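Each of 80 groups of 4 libraries (CPM of the 34 genes and the 6 ratios, in each tissue) was examined for a library far from the other 3, taken as a gap to its neighbour above 0.829 of the group's whole range. Chance alone marks about 1 group in 20, and 6 of the 80 were marked. For Rpia, small intestine replicate 3 had 63.9 CPM, and the other 3 had 37.6 to 41.9 CPM. For Keap1, tumor replicate 4 had 66.54 CPM, with the others at 48.9 to 49.52 CPM, and its log2 ratio of Keap1 to Nfe2l2 was -0.96 against -1.64 to -1.55. Prdx5 in tumor replicate 4 was 107 CPM against 136 to 141 CPM. The log2 ratio of Sod2 to Sod1 was -1.58 in tumor replicate 2 against -1.44 to -1.41 in the other tumors. In small intestine replicate 2 the same ratio was -2.24 against -2.93 to -2.81 in the other small intestines.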

How the results depend on the processing

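The scaling between tissues moved more calls than any other choice. With library totals 18 of the 34 genes were higher and 10 lower, against 62% and 17.6% of all genes. In FPKM (limma) 19 were higher and 10 lower with a pseudocount of 1 (64.6% and 18.1% of all genes) or of 0.1 (64.5% and 18.1%), and 18 were higher and 9 lower without the filter on low values (44.3% and 11.9%). With DESeq2 size factors, TMM without the 50 most abundant genes, no filter on counts, a minimum mean of 1 CPM, or the DESeq2 Wald test, 5 were higher and 15 to 17 lower, and the calls lost there were those of Nfe2l2 and Keap1. Of all genes, 38.1% were higher and 36.1% lower with DESeq2 size factors, 39.4% and 34.9% without the 50 most abundant genes, 27.3% and 22.6% with no filter, 40.3% and 38% with the minimum mean, and 32% and 30.5% with the Wald test. Leaving out 1 library at a time gave 5 higher in each case and 14 to 19 lower, where 69.2% to 73.5% of all genes passed. In those fits Nfe2l2 lost its call except without small intestine replicate 2, Keap1 lost it except without tumor replicate 4 or small intestine replicate 1, Gsr lost it without tumor replicate 2, and Rpe, Txnrd1 and Sod2 passed as lower without small intestine replicate 1, at -0.24, -0.36 and -0.24.

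The following log2 fold changes had the opposite sign to the TMM value and passed the test in one or both of the 2 fits. With library totals these were Pgls 0.69, Pgd 0.84, Rpia 0.77, Rpe 0.75, Nfe2l2 0.58, Keap1 0.53, Gsr 0.0059, Txnrd1 0.59, Prdx1 0.81, Prdx6 0.85, Gpx1 0.80 and Sod2 0.72, and Gpx2 was 0.73 without passing. In FPKM with a pseudocount of 1, with the filter, they were Pgls 0.69, Pgd 0.84, Rpia 0.68, Rpe 0.77, Nfe2l2 0.58, Keap1 0.41, Gsr 0.14, Txnrd1 0.61, Prdx1 1.10, Prdx6 0.90, Gpx1 0.87, Gpx2 0.83 and Sod2 0.83, and without the filter the values were the same, except that the Gpx2 value did not pass. With a pseudocount of 0.1 they were Pgls 0.70, Pgd 0.84, Rpia 0.72, Rpe 0.81, Nfe2l2 0.59, Keap1 0.42, Gsr 0.14, Txnrd1 0.62, Prdx1 1.10, Prdx6 0.91, Gpx1 0.87, Gpx2 0.83 and Sod2 0.87. With library totals the sign follows from the construction, since nearly the same amount is added to every gene. In FPKM, which is also scaled to library size, the median over all genes tested was 0.76 with a pseudocount of 1 and the filter, and 0.11 without the filter. The cause of the sign in FPKM was not tested. Other values changed sign without passing in either fit. With no filter on counts these were Pgd 0.07, Prdx1 0.05, Prdx6 0.09 and Gpx1 0.04, and without the 50 most abundant genes Prdx6 0.0093. With the replicate block they were Prdx6 0.05 and Gpx1 0.0075. In the fits without 1 library they were values of G6pdx, Pgd, Rpia, Prdx1, Prdx3, Prdx6, Gpx1 and Gpx2. Taldo1 did not pass in FPKM without the filter, at -0.32 (limma, adjusted p = 0.0773).

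The labels do not state whether same-numbered libraries came from the same animal. The correlations of their deviations from the group means were -0.07, -0.08, 0.01 and -0.16, which gave no sign that they deviate together, and the number was not used as a block for the values above. With the replicate number as a block, 5 of the 34 genes were higher and 15 lower, against 37% and 32.8% of all genes. The calls lost were again Nfe2l2 and Keap1. For the ratios, an exact sign-flip test over 4 pairs with the block cannot go below p = 0.125. Leaving out 1 library gave 0.54 to 0.65 for the oxidative over non-oxidative ratio, 1.18 to 1.41 for Sod2 over Sod1, -0.10 to 0.17 for Gclc over Gclm, -0.25 to 0.10 for Gpx2 over Gpx1, 0.28 to 0.72 for Txnrd1 over Gsr and -0.22 to 0.11 for Keap1 over Nfe2l2. In 3 against 4 libraries the smallest possible p is 0.0571. The lowest count of the 34 genes in any library was 83.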
